A study of Mus musculus with 32 samples.

Results

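The 39 Hox genes of the mouse, those of the HoxA, HoxB, HoxC and HoxD clusters, were compared between RNA from WT mouse embryonic stem cells (mESCs) and RNA from mESCs labelled Eed-/-. Members were chosen by symbol alone, as every gene named Hox with a cluster letter and a paralog number, which gave 39 of the 24028 symbols in the deposited tables. Antisense and host transcripts of the clusters were left out. Hox genes encode homeodomain transcription factors that give cells along the body axis their regional identity, and the order of the genes on the chromosome follows the order in which they are used from head to tail. In mESCs the clusters are textbook targets of Polycomb: PRC2, of which EED is a core subunit, places H3K27me3 over them, and the genes are kept silent until differentiation. Genes of low paralog number act in the hindbrain and neck, those in the middle of a cluster in the trunk, and those of high paralog number in the hind end of the axis, the distal limb and the urogenital tract.

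Both samples were labelled as mESCs of the TT2 line, 1 of genotype WT and 1 of genotype Eed-/-, and were grown without feeders on gelatin in medium with serum and leukemia inhibitory factor. In the labels, Eed-/- samples of other assays carry the name of another line. With 1 library per genotype there was no spread between cultures to set a difference against, so no test was made, and an effect of the genotype and a difference of these 2 cultures cannot be told apart. Values are FPKM (fragment numbers scaled to transcript length and library size) as deposited, and changes are differences in log2(FPKM + 1) after quantile normalization, given as the library labelled Eed-/- minus WT. A change of 1 on this scale is called 2-fold, and at low FPKM the added 1 makes a change look smaller than it is. The steps between low values gave a depth of about 7237217 fragments for WT and 6456399 for the library labelled Eed-/-, so that for a 2 kb transcript an FPKM of 1 stood for about 13.2 and 11.8 fragments. Bulk RNA cannot separate fewer cells that express a gene from less RNA per cell.

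The libraries differed in ways that concern the whole table. The transcript of Eed itself was at an FPKM of 63.0 in the WT library and 70.9 in the library labelled Eed-/-. RNA level thus did not mark the mutation, and that library is named by its label throughout. The paper reports checking the loss of Eed through H3K27me3, by western blot and ChIP-seq. As stated above, Eed-/- samples of other assays carry another line name in the labels. Over symbols that averaged 0.1 or more in normalized FPKM, the median change was -0.29 on chromosome 1, -0.38 on chromosome 8, 0.46 on chromosome X and 1.77 over 6 symbols on chromosome Y. The chromosomes of the Hox clusters had medians near 0, with 0.08 on chromosome 2 (HoxD), 0.02 on chromosome 6 (HoxA), 0.04 on chromosome 11 (HoxB) and 0.01 on chromosome 15 (HoxC). The part of these chromosome-wide differences in the Hox values was not tested.

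In mm9, the build used by the authors, HoxA lay at chr6:52105366-52210874 on the minus strand, HoxB at chr11:96055630-96229570, HoxC at chr15:102751534-102867274 and HoxD at chr2:74506367-74603200, the last 3 on the plus strand. Promoter windows of the members with the largest rise in normalized FPKM (Hoxd13, Hoxa11, Hoxa10 and Hoxc12) and, for each, of the paralog with the smallest change were looked up to show what kind of sequence stands before these genes. The windows run from 250 bases before to 50 bases after a transcription start, and come from RefSeq on GRCm38.p6, whose coordinates differ from those of mm9. They are written 5' to 3' on the strand of the gene, with each CG dinucleotide in capitals. Hoxd13 is at chr2:74667975-74668274, Hoxa11 at chr6:52245761-52246060, Hoxa10 has windows for a pair of starts at chr6:52234890-52235189 and chr6:52240805-52241104, and Hoxd12, the paralog of Hoxc12, is at chr2:74674763-74675062. Hoxc12, Hoxb13, Hoxc11 and Hoxc10 have no window in the table.
Hoxd13: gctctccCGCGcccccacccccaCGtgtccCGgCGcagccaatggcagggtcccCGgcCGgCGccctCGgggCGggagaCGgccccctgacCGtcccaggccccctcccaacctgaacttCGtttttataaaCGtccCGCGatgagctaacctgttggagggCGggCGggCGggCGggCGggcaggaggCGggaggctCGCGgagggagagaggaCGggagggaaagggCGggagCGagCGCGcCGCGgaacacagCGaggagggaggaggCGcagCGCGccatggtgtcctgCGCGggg
Hoxa11: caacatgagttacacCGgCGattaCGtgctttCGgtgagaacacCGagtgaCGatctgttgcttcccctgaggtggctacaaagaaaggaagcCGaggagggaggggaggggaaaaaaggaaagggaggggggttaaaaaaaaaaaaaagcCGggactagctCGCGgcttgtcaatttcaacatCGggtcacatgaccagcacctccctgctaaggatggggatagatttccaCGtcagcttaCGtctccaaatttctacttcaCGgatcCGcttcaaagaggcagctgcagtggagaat
Hoxa10, first window: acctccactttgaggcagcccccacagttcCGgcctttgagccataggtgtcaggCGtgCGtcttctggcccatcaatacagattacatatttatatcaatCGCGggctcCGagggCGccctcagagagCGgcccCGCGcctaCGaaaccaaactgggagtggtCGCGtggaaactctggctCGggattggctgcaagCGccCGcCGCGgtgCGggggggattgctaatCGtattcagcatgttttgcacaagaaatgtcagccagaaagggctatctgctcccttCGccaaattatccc
Hoxa10, other window: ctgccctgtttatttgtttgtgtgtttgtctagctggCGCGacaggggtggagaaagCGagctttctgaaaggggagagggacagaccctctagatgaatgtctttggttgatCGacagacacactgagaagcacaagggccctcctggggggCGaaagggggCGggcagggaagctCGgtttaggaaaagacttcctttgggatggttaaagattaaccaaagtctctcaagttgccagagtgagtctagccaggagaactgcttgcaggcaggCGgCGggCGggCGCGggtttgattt
Hoxd12: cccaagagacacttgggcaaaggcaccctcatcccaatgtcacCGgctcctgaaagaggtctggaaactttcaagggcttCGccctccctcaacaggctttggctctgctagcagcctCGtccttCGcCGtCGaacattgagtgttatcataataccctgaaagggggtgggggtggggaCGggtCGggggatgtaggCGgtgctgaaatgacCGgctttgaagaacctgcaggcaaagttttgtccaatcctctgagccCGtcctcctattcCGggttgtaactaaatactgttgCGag

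The Hoxd13 window held 37 CG dinucleotides and the Hoxa11 window 15. The Hoxa10 windows held 21 and 12, and the Hoxd12 window, from a gene with a small change, held 13. The Hoxd13 window also held the letters CCAAT 212 bases and TATAAA 124 bases before the start, both on the strand of the gene. It held TATAAA on the other strand too, 126 bases before the start. Such letters were not particular to Hoxd13. The Hoxd12 window held CCAAT 217 and 5 bases before the start, on the strand of the gene. The first Hoxa10 window held TATAAA 160 bases and CCAAT 64 bases before the start, on the other strand. These matches are a description of the letters, not of sites in use.

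Nearly the whole family was higher in the library labelled Eed-/-, at levels that stayed low. Of the 39 members, 33 were higher (84.6%), 1 was lower and 5 were listed at 0 in both libraries. Of all 24028 symbols, 35.2% were higher and 34.7% lower; of the 7410 symbols with a mean normalized FPKM above 0 and under 2, a range that holds 34 of the members and leaves out the 5 listed at 0, 49.6% were higher and 50.2% lower. The median change of the 39 members was 0.29, against 0.00 for all symbols and 0.00 for the 7410 of that range. Summed over the family, FPKM was 1.95 in the WT library and 19.5 in the library labelled Eed-/-.

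No Hox gene reached an FPKM of 1 in WT, where the highest was Hoxb13 at 0.243. In the library labelled Eed-/-, 6 members did: Hoxd13 at 3.56, Hoxa11 at 1.60, Hoxa10 at 1.48, Hoxc12 at 1.17, Hoxb7 at 1.14 and Hoxc13 at 1.03. Hoxd13 alone passed an FPKM of 2, and the other 38 members were under 2 in both libraries. In WT, 23 members were listed at 0, and 18 of these (46.2% of the family) were above 0 in the library labelled Eed-/-. No member was above 0 in WT alone. Over all symbols, 4.85% were at 0 in WT only and 4.31% in the other library only, and in the range under 2 these shares were 15.5% and 13.6%.

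On the log2(FPKM + 1) scale, 4 members (10.3%) were at least 2-fold higher and 0 at least 2-fold lower. In the range under 2, 2.02% of symbols were at least 2-fold higher and 1.82% lower, and over all symbols 2.35% and 2.46%. The 4 members were Hoxd13, Hoxa11, Hoxa10 and Hoxc12, all of paralog groups 10 to 13. They came from the HoxA, HoxC and HoxD clusters.

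**Figure D1:**
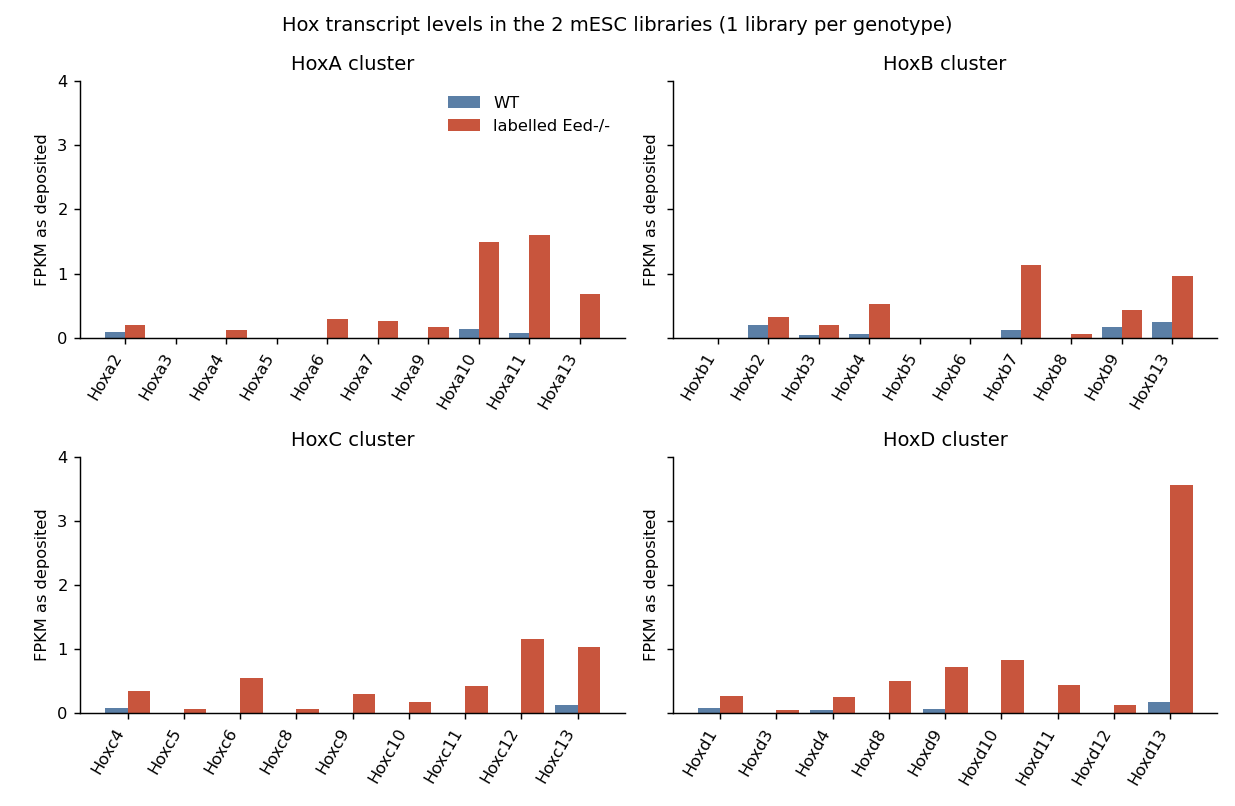
Deposited FPKM (linear axis from 0 to 4) of the Hox genes in the WT library and in the library labelled Eed-/-, in 4 panels, 1 for each cluster, ordered by paralog number; each bar is 1 library, so there are no error bars. The tallest bar is Hoxd13 at 3.56, and no WT bar exceeds 0.243.

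In HoxA, 8 of 11 members were higher, and Hoxa3 and Hoxa5 were listed at 0 in both libraries. Hoxa2, which acts in the branchial arches, was at 0.0865 in the WT library and 0.194 in the library labelled Eed-/-. These values rest on about 1 against 3 fragments and did not differ beyond counting error. Hoxa3, needed for thymus and parathyroid, and Hoxa5, needed for lung and airway, were the members listed at 0. Atp5g2, a subunit gene of the ATP synthase, was also listed at 0 in both libraries. The related genes Atp5g1 (38.6 in the WT library and 37.2 in the library labelled Eed-/-) and Atp5g3 (162 and 182) were not. Whether the RNA was absent or an estimate failed was not tested.

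The middle of HoxA went from 0 to low values. Hoxa4 was listed at 0 in the WT library and at 0.115 in the library labelled Eed-/-, Hoxa6 at 0 and 0.297, and Hoxa7 at 0 and 0.262. Hoxa9, a regulator of blood stem and progenitor cells, was listed at 0 and at 0.162. Each of these 4 values stood for 1 to 3 fragments.

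The high end of HoxA held 3.93 of the cluster's summed FPKM of 5.01 in the library labelled Eed-/-, but 0.205 of 0.533 in WT. Hoxa10, known from the uterus and the lumbar axis, was at 0.139 in the WT library and 1.48 in the library labelled Eed-/-, a change of 1.13. Hoxa11, which patterns forearm and lower leg and also acts in the uterus, was at 0.0656 and 1.60, a change of 1.31. Hoxa13, a gene of the hand and foot plate and the hindgut, was listed at 0 in WT and at 0.686, a change of 0.77. In fragments the differences were about 2 against 23 for Hoxa10, 1 against 26 for Hoxa11 and 0 against 10 for Hoxa13, and the exact 95% Poisson intervals of the libraries, scaled to depth, did not overlap for any of the 3. With mean in place of longest transcript lengths, the intervals of Hoxa13 (about 4 fragments) met.

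Hoxa11 overlaps an annotated antisense gene, and the symbol Hoxa11os, which is no member, was listed at 0 in the WT library and at 1.04 in the library labelled Eed-/-. The libraries were made strand-specific, but the strand setting of the quantification is not given in the sources used here. How much of the Hoxa11 value is antisense RNA was not tested. Without Hoxa11, 3 members were at least 2-fold higher.

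In HoxB, 7 of 10 members were higher, 0 were lower and 3 (Hoxb1, Hoxb5 and Hoxb6) had an FPKM of 0 in each library. HoxB was the cluster with the most RNA in WT, with a summed FPKM of 0.827 against 0.199 to 0.533 in the others, and the least in the library labelled Eed-/-, 3.62. Only Hoxb8, among the members that differed, was at 0 in WT. Hoxb1, a gene of the hindbrain that retinoic acid switches on early, was among those listed at 0.

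Hoxb7, of the trunk, was the member of HoxB with the largest change, 0.93, with FPKM of 0.126 in the WT library and 1.14 in the library labelled Eed-/-. Hoxb13, which acts at the tail end of the axis and in the prostate, followed at 0.243 and 0.956, a change of 0.67. Hoxb4, known for its effect on blood stem cells, was at 0.0579 and 0.519, a change of 0.53. None of the 10 members passed 2-fold on this scale.

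The remaining members of HoxB differed by less. Hoxb2 was at 0.190 in the WT library and 0.321 in the library labelled Eed-/-, Hoxb3 at 0.0442 and 0.198, and Hoxb9 at 0.165 and 0.431. Hoxb8 was listed at 0 and at 0.0628, about 1 fragment. Among HoxB members, the counting intervals lay apart for Hoxb4 (about 2 against 13 fragments) and Hoxb7 (3 against 27). The library ratios of these 2 genes are also met by 1 against 8 fragments each, if the transcript used by the authors was shorter than the longest annotated one, and at such numbers the intervals would meet.

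In HoxC, all 9 members were higher and 7 of them were listed at 0 in WT. The exceptions were Hoxc4, at 0.0766 in the WT library and 0.344 in the library labelled Eed-/-, and Hoxc13, at 0.123 and 1.03. Hoxc13, which acts in hair and nails, had a change of 0.86, with about 2 against 15 fragments and intervals apart. Hoxc12 was listed at 0 and at 1.17, a change of 1.13. This rested on about 6 fragments on the shortest transcript of the family (1031 bp). Its counting interval, 2.20 to 13.1 fragments, met that of WT. The exact interval of its depth-corrected ratio, from 1.32 upward, lay above 1.

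The other members of HoxC were seen in the library labelled Eed-/- only. Hoxc6, of the forelimb level, was at 0.548, Hoxc11 at 0.421 and Hoxc9, of the thoracic level, at 0.302. Hoxc10, which marks lumbar motor neurons, was at 0.179, Hoxc8 at 0.0708 and Hoxc5 at 0.0608. The last 2 stood for about 1 fragment each.

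In HoxD, all 9 members were higher, and the cluster had the largest summed FPKM in the library labelled Eed-/-, 6.79 against 0.392 in WT. Hoxd13, which shapes the digits, gave 52.5% of that sum, with an FPKM of 3.56 against 0.180 in WT. Its change of 1.99 was the largest of the family. It rested on about 3 fragments (95% Poisson interval 0.619 to 8.77) against 53 (39.7 to 69.3), a depth-corrected ratio of 19.8 (6.42 to 99.1).

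Next to Hoxd13, Hoxd12 was among the members with small changes, listed at 0 in the WT library and at 0.132 in the library labelled Eed-/-, about 2 fragments. Hoxd11, a partner of Hoxa11 in the forearm, was listed at 0 and at 0.443, and Hoxd10, of the lumbar cord and limb, at 0 and 0.835. Hoxd9 was at 0.0720 and 0.726, and Hoxd8 at 0 and 0.498. Values in HoxD therefore did not fall evenly from the Hoxd13 end, since Hoxd12 lay below its neighbours on both sides.

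At the other end of HoxD, Hoxd4 was at 0.0581 in the WT library and 0.260 in the library labelled Eed-/-, and Hoxd1, expressed in pain-sensing neurons, at 0.0821 and 0.276. Hoxd3, which acts in the neck vertebrae, was listed at 0 and at 0.0569. These rested on at most 4 fragments in a library. The counting intervals lay apart for Hoxd8, Hoxd10, Hoxd11 and Hoxd13, and with mean transcript lengths those of Hoxd8 met.

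**Figure D2:**
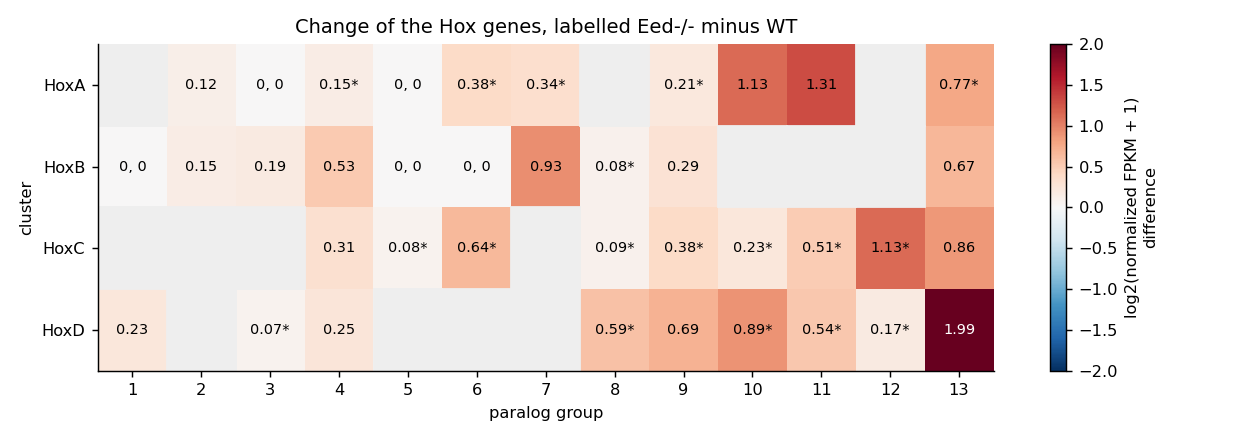
Change of the Hox genes in log2(normalized FPKM + 1), the library labelled Eed-/- minus WT, by cluster (rows) and paralog group (columns); an asterisk marks a gene listed at 0 in WT, "0, 0" a gene listed at 0 in both libraries, and grey a position with no gene or with a gene not shown. The darkest cells are Hoxd13 (1.99), Hoxa11 (1.31), Hoxa10 and Hoxc12 (1.13 each).

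Set side by side across the clusters, changes were larger at higher paralog numbers. For paralog groups 1 to 3, the anterior genes, 5 of 8 members were higher, with a median change of 0.10 and summed FPKM of 0.644 in the WT library and 1.25 in the library labelled Eed-/-. For groups 4 to 8, the trunk genes, 12 of 15 were higher, with a median of 0.25 and sums of 0.319 and 4.18. For groups 9 to 13, the posterior genes, all 16 were higher, with a median of 0.68 and sums of 0.988 and 14.1. Posterior genes held 50.6% of the summed Hox FPKM in the WT library and 72.2% in the library labelled Eed-/-, and anterior genes 33.0% and 6.39%.

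Single paralog groups did not follow this order throughout. Group 13 had all 4 members (Hoxa13, Hoxb13, Hoxc13 and Hoxd13) with changes of at least 0.67, and a summed FPKM of 0.546 in the WT library and 6.24 in the library labelled Eed-/-. Group 5 was at the other extreme, with Hoxa5 and Hoxb5 listed at 0 in both libraries and Hoxc5 at about 1 fragment. Over the 39 members, Spearman's correlation between paralog number and change was 0.69, and within clusters it was 0.88 in HoxA (n = 11), 0.45 in HoxB (n = 10), 0.65 in HoxC (n = 9) and 0.52 in HoxD (n = 9). For the level in WT, the correlation over the 39 members was -0.05. These correlations run across genes of the same pair of libraries and describe them only. Between change and the longest transcript length it was 0.00.

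The numbers of fragments set how far single members can be read. Of the 39 members, 18 had at most 3 fragments in both libraries. For 10 members (25.6%), the exact 95% Poisson intervals of the libraries, scaled to depth, lay apart, in each case with the library labelled Eed-/- higher: Hoxa10, Hoxa11, Hoxa13, Hoxb4, Hoxb7, Hoxc13, Hoxd8, Hoxd10, Hoxd11 and Hoxd13. With mean transcript lengths 8 remained, without Hoxa13 and Hoxd8. Of the 20822 symbols with an annotated length, 8.73% lay apart with that library higher and 16.0% with it lower, and of the 6572 in the range under 2, 5.95% and 5.23%. These intervals cover counting error only.

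By cluster, the difference exceeded counting error in each case. HoxA had 8 fragments in WT (interval 3.45 to 15.8) and 75 in the library labelled Eed-/- (59.0 to 94.0), HoxB 17 (9.90 to 27.2) and 69 (53.7 to 87.3), HoxC 3 (0.619 to 8.77) and 43 (31.1 to 57.9), and HoxD 6 (2.20 to 13.1) and 105 (85.9 to 127). Corrected for depth, the ratio was 10.5 for HoxA (exact 95% interval 5.07 to 25.2), 4.55 for HoxB (2.65 to 8.25), 16.1 for HoxC (5.14 to 81.0) and 19.6 for HoxD (8.72 to 54.7). The intervals of HoxB and HoxD did not meet, and all other pairs overlapped. The gap between HoxB and HoxD closed when Hoxd13 was left out together with Hoxa11 (HoxD from 6.29 upward) and when mean transcript lengths were used (HoxB up to 8.28, HoxD from 8.12 upward).

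By paralog position, the anterior genes had 11 fragments in the WT library and 18 in the library labelled Eed-/-, a ratio of 1.83 (0.820 to 4.30), which includes no difference. The trunk genes had 7 and 71, a ratio of 11.4 (5.24 to 29.3), and the posterior genes 16 and 203, a ratio of 14.2 (8.55 to 25.4). The anterior interval lay below both others, and the trunk and posterior intervals overlapped. The posterior interval stayed above the anterior one without Hoxd13 and Hoxa11, a choice made after seeing the data, at 11.6 (6.40 to 23.0), while with mean transcript lengths the trunk interval, from 4.00 upward, met the anterior one, up to 5.39.

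**Figure D3:**
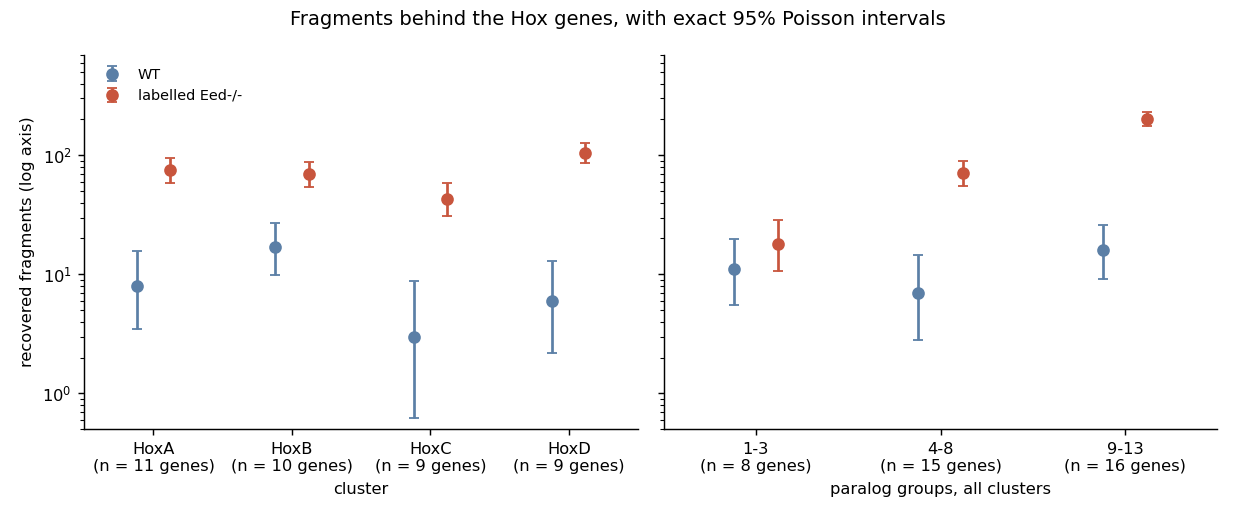
Fragments recovered from the FPKM (log axis), summed over the genes of each cluster (left) and of each paralog zone (right), for the WT library and the library labelled Eed-/-; bars are exact 95% Poisson intervals and cover counting error only. The intervals of the libraries lie apart in every group except paralog groups 1 to 3, with 11 against 18 fragments.

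The differences were set beside those of the genes around the clusters, the 3 nearest protein-coding genes with a value on each side. Of these 24 neighbours, 13 were higher and 9 lower, with a median change of 0.07, and 17 had at least 2 FPKM in each library. Of the 24, 2 were at least 2-fold higher, Evx1 and Calcoco2, and 1 at least 2-fold lower, Ttll6.

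Evx1, a homeobox gene related to the Hox genes that stands 52.6 kb beyond Hoxa13, was at 0.0513 in the WT library and 1.32 in the library labelled Eed-/-, about 1 against 23 fragments and a change of 1.15. Evx2, its counterpart 8.45 kb beyond Hoxd13, was listed at 0 in both libraries. Next to Hoxb13, Ttll6, a tubulin polyglutamylase gene 28.9 kb away, was lower (2.42 and 0.205, a change of -1.48) and Calcoco2, an autophagy receptor gene 82.4 kb away, was higher (33.5 and 90.0, a change of 1.63). On the side of paralog group 1 the nearest neighbours were Skap2 beside HoxA (15.4 and 13.2), Skap1 beside HoxB (0.0745 and 0.0789), Smug1 beside HoxC (2.94 and 3.34) and Mtx2 beside HoxD (23.1 and 28.4), with changes from -0.07 to 0.47.

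**Figure D4:**
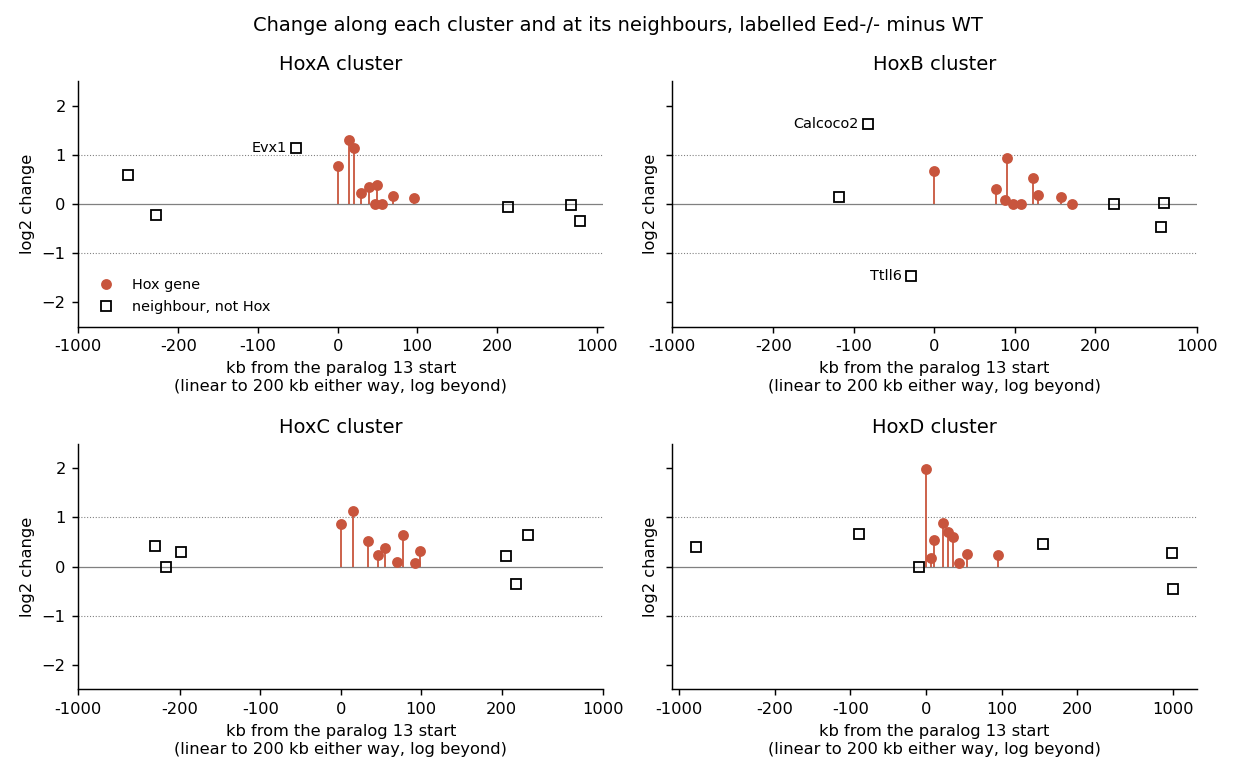
Change in log2(normalized FPKM + 1), the library labelled Eed-/- minus WT, against distance from the start of the paralog 13 gene in kb (linear to 200 kb either way and log beyond), for Hox genes (circles) and 24 neighbouring genes (open squares); dotted lines mark 2-fold. Neighbours lie on both sides of 0, and the labelled ones (Evx1, Calcoco2 and Ttll6) are at least 2-fold changed.

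Features that the choice of members did not use were described next. Exons of Hoxa2 and Hoxa3, of Hoxb7 and Hoxb8 and of Hoxd3 and Hoxd4 overlap on the same strand in the annotation, so fragments of these 6 members could be divided between the genes in more than 1 way. In addition, 8 members overlap an antisense gene. In the study's list of genes associated with DNA methylation valleys (DMVs, long unmethylated regions) of mESCs, 23 of the 39 members were present. The share of all symbols in that list is not given here, so this count is not read as an enrichment. These 23 had a median change of 0.51, with 19 higher and all 4 members past 2-fold, and the 16 others a median of 0.23, with 14 higher. Summed FPKM was 1.07 in the WT library and 14.6 in the library labelled Eed-/- for the listed genes and 0.878 and 4.95 for the others. Of the listed genes, 11 of 23 belong to paralog groups 9 to 13, against 5 of 16 of the others, and the part of paralog position in this difference was not tested.

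Promoter windows were at hand for 22 of the 39 members, 24 windows in all. A Hox window held a median of 14.5 CG dinucleotides (4 to 45), against 7 over the 32851 windows of the table, and a median GC content of 57.7% against 52.7%. Windows of paralog groups 9 to 13 held a median of 20 and those of groups 1 to 8 a median of 13. All windows of groups 9 to 13 came from HoxA and HoxD. HoxB and HoxC had windows only for Hoxb1, Hoxb4, Hoxb8 and Hoxc4. Hoxa3 and Hoxa5, listed at 0 in both libraries, had windows with 20 and 29, and Hoxb1 had 10. Spearman's correlation between the CG number of a gene's window and its change was 0.30 (n = 22 genes), a description only. The letters TATAAA were in 16.7% of the Hox windows and 13.6% of all windows, and CCAAT in 62.5% and 37.4%, both strands searched.

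Genes that work with HOX proteins or act on the clusters were read from lists. HOX cofactors of the PBX, MEIS and PKNOX families bind DNA together with HOX proteins, and 5 of 9 were higher and 4 lower (median change 0.18). Meis1 was at 1.22 in the WT library and 6.27 in the library labelled Eed-/- (change 1.79) and Meis2 at 0.187 and 3.53 (1.97). Both were at least 2-fold higher. The cofactors with the highest levels differed by less, with Pbx2 at 11.9 and 13.1, Pknox1 at 8.65 and 7.05 and Meis3 at 2.42 and 2.24.

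The ParaHox and CDX genes are sister homeobox genes, and CDX proteins switch on trunk and posterior Hox genes in the embryo. Of 6, 5 were higher and 1 lower, with a median change of 0.15 and none past 2-fold. Cdx4 was at 0.292 and 1.53 (change 0.99), Cdx1 at 1.14 and 1.38, and Cdx2 at 0.562 and 0.0788 (change -0.53). Retinoic acid switches on anterior Hox genes, and of 18 genes of its pathway 9 were higher and 8 lower, with a median of 0.02. The pathway's members past 2-fold were lower: Rara, a receptor, at 17.9 and 6.41, and Crabp1, a binding protein, at 34.8 and 13.7. Rarg was at 37.7 and 31.2, Rxrb at 18.2 and 10.1, and Crabp2 at 4.00 and 6.23.

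The machineries with opposite roles at the clusters differed unevenly. Of 8 genes of the Trithorax (MLL1/2) complexes, which keep Hox genes active, 4 were higher and 4 lower (median 0.09), with Ash2l at least 2-fold lower (180 and 51.5). Dpy30 was at 133 and 141, Psip1 at 93.8 and 78.2, and Wdr5 at 53.2 and 62.1. Of 11 PRC2 genes, 6 were higher and 5 lower (median 0.07), with Phf19, an accessory subunit, at least 2-fold lower (13.7 and 2.61). Jarid2 was at 90.5 and 80.7, Rbbp7 at 96.2 and 66.6, and Suz12 at 67.3 and 67.5. Ash2l lies on chromosome 8, whose median change is given above. Other genes of that chromosome named below were higher (Zfp42 and Col4a1) or lower (Tubb3), and the part of the chromosome in these values was not tested.

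**Figure D5:**
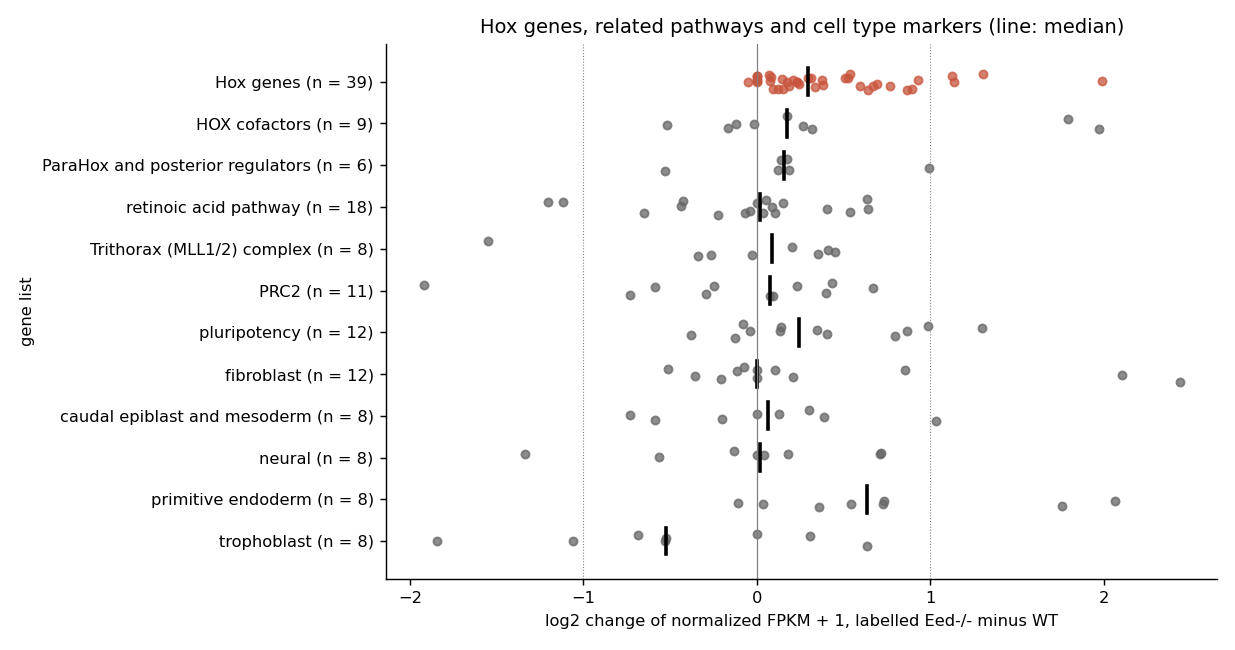
Change in log2(normalized FPKM + 1), the library labelled Eed-/- minus WT, of each Hox gene (red) and of each gene of the pathway and marker lists (grey); the vertical bars are medians and dotted lines mark 2-fold. All but 1 of the Hox genes lie at or above 0 (median 0.29). Each list has genes on both sides of 0, and the primitive endoderm list, with 7 of 8 genes higher, has a median of 0.63.

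Markers of other cell types that could bring Hox RNA into a culture were read in the same way. The pluripotency list had 8 of 12 genes higher and 4 lower, with Pou5f1 at 393 in the WT library and 373 in the library labelled Eed-/-, Sox2 at 196 and 157, Dppa5a at 250 and 372, and Zfp42, at least 2-fold higher, at 131 and 272. Both libraries thus carried high levels of the genes that define mESCs. Of 12 fibroblast genes, 5 were higher and 5 lower, and the summed FPKM was 83.7 and 162. That sum was led by Vim (24.9 and 118) and Fn1 (55.9 and 33.5), and Thy1 was at 0.976 and 6.97. Twist1 was at 1.24 and 2.88. Of these, Vim and Thy1 were at least 2-fold higher. The collagen gene Col1a1 was at 0.460 and 0.137, and Dcn and Twist2 were listed at 0 in both. The part of this list's genes in the Hox values was not tested.

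Of 8 genes of the caudal epiblast and mesoderm, where Hox genes are first switched on, 4 were higher and 3 lower, with summed FPKM of 3.30 and 3.80. Eomes was at least 2-fold higher (0.478 and 1.93). T was also higher (0.296 and 0.581), as were Tbx6 (0.0899 and 0.202) and Fgf8 (0 and 0.304). The lower genes were Wnt3a at 1.08 and 0.241, Mixl1 at 0.590 and 0.367, and Mesp1 at 0.766 and 0.172. Of 8 neural genes, 4 were higher and 3 lower, with sums of 115 and 98.7, Tubb3 at 95.4 and 74.0, Olig2 at 7.23 and 11.2, Nes at 6.97 and 10.8, and Neurod1 at least 2-fold lower (2.81 and 0.469).

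Of 8 primitive endoderm genes, 7 were higher and 1 lower, with a median change of 0.63 and sums of 15.4 and 56.6. The basement membrane genes Lama1 (8.25 and 33.5) and Col4a1 (5.62 and 19.1) were at least 2-fold higher and made up most of the sum, while Gata4 was at 0.431 and 1.35, Sox7 at 0.314 and 1.15, and Dab2 at 0.499 and 0.515. Of 8 trophoblast genes, 2 were higher and 5 lower, with sums of 62.1 and 20.0 and with Tfap2c (39.8 and 9.21) and Krt18 (12.1 and 4.69) at least 2-fold lower. Krt8 was at 6.88 and 3.53, Ascl2 at 2.41 and 1.30, and Gata3 at 0.365 and 0.664. Foxa2 was the lower gene of the primitive endoderm list, and the part of this list's genes in the Hox values was not tested.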

How the data were processed

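RNA-seq libraries of WT and Eed-/- mESCs, 1 of each, were analysed; samples of the other assays were not used here. According to the labels and methods, ribosomal RNA was removed, libraries kept the strand, and the authors mapped reads to mm9 with TopHat and computed the deposited FPKM with Cufflinks 2.2.1, per the submitters' processing notes. The annotation and options are not given in the sources used here, and the TopHat version differs between the notes and the methods.

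The 24525 values of each file were summed to 24028 symbols; no Hox symbol was listed more than once. Libraries were quantile-normalized and compared as log2(FPKM + 1) with no filter on members. Depth was recovered from low values of 5053 genes that have 1 transcript, 1000 bp or longer, with 180 bp taken off; 562 of 701 low values in WT and 648 of 786 in the other library were whole within 0.1. Fragments of a member are its FPKM times depth and longest transcript in GENCODE vM1 on NCBIM37 (mm9), all 39 members matched, and are approximate. Poisson and Clopper-Pearson intervals at 95% cover counting error only. With 1 library per genotype, no test was made.

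All members enter the counts, and those above 0 in a library are named with their values except 1 gene that is not reported here by name. Other genes come from lists and from the neighbours. Of a list, members past 2-fold and at most 3 others that lead by mean FPKM are named. Eed is also named, as are the other higher genes of the caudal epiblast and mesoderm list. So are markers listed at 0 or lower in the fibroblast and primitive endoderm lists. Promoter windows were shown for at most 4 members with the largest rise and the paralog with the smallest change. Members and lists were chosen with earlier results of these data known. Hoxa11os, Hotair and the other left-out transcripts were named after their values were seen. The DMV list of the study was used only as a list of names. The scaling, the change and the depth recovery were tested on simulated data. Changes were planted there only in genes with a mean of at least 2 FPKM, while 38 members were under 2 in both libraries. Alternatives were median-ratio scaling, the deposited FPKM unscaled, pseudocounts of 0.1 and 0.01, filters, a 3-fold threshold and other transcript lengths. Scripts used pandas 2.3.3, numpy 2.4.6, scipy 1.17.1 and matplotlib 3.10.9 under Python 3.11.15.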

Additional observations from a re-analysis of the deposited data

How the results depend on the processing

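No paired analysis was possible because there was 1 library per genotype and no test was made. With the FPKM as deposited and with median-ratio scaling, all 39 members kept their direction, although the deposited scale moved the median change of all symbols with a mean of at least 0.1 from 0.01 to -0.09. No member and no median changed sign under any alternative run, but the order of the clusters changed under some. The size of the changes depended on the pseudocount and on filters, by their construction. With a pseudocount of 0.1 the median change was 1.36 for the 39 members, 1.36 for HoxA, 0.81 for HoxB, 2.01 for HoxC, 2.25 for HoxD, 0.56 for paralog groups 1 to 3, 1.14 for groups 4 to 8 and 2.37 for groups 9 to 13, and 25 members were at least 2-fold higher. With 0.01 the medians were 2.96, 3.60, 1.54, 4.20, 3.78, 0.84, 2.90 and 4.23 in the same order, and 31 members passed 2-fold. HoxD led the clusters with pseudocounts of 1 and 0.1 and HoxC with 0.01. Over the 26 members with a mean of at least 0.1 the medians were 0.53 for the family, 0.38, 0.41, 0.58 and 0.59 for HoxA to HoxD and 0.15, 0.45 and 0.77 for the zones, and over the 16 above 0 in both libraries 0.42, 0.63, 0.41, 0.59 and 0.47, and 0.15, 0.42 and 0.86, so that HoxA led there. The order of the paralog zones was the same under all of these. With a 3-fold threshold 1 member, Hoxd13, was called. Of the 16 members above 0 in both libraries, 15 were higher, fewer by construction. With mean transcript lengths, HoxA and HoxB had 53 fragments each in the library labelled Eed-/-. With the same lengths, 8 members had counting intervals apart, Hoxa13 and Hoxd8 being lost. Alternatives chosen after seeing the data were longest protein-coding transcripts and a minimum of 3 fragments in a library, which kept the counts within 1.5 times, leaving out Hoxa11, and leaving out Hoxd13 and Hoxa11, which took HoxD from 105 to 52 fragments. The depth limits most single genes, since 18 members had at most 3 fragments in both libraries. Whether a listed 0 is an absence of RNA or an estimate that failed was not tested.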

Other observations

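Transcripts of the clusters that are no members were named here after their values were seen. Hoxa11os, antisense to Hoxa11, was listed at 0 in WT and at 1.04 in the library labelled Eed-/-. Hotair, a long non-coding RNA of the HoxC cluster, was listed at 0 and at 0.152. Hottip, next to Hoxa13, was listed at 0 in both libraries, as were the microRNA genes Mir10a, Mir10b, Mir196a-1, Mir196a-2, Mir196b and Mir615 inside the clusters. Of the transcripts named here, only Hoxa11os and Hotair had a value above 0, so the others say nothing on direction.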
